A study of Homo sapiens with 6 samples.

Results

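Along 500 human genes, 652 exon probesets stood higher relative to the rest of their gene after MALAT1 depletion than in control cells. An exon array reads each gene through many probesets, small groups of probes that mostly cover a single exon or part of one, and every value is a log2 signal from RMA. For each probeset the group mean minus the control mean was taken with AS1 and with AS2, and the median of the same difference over all probesets of the gene was subtracted. The result is called the relative change here. The 652 relative risers were selected on these values and are those with a relative change of at least 1 with both oligonucleotides, a mean of at least 6 over the 4 AS arrays, and a gene whose median control probeset reached 6. They were taken from 209621 probesets that name a single gene, in 13890 genes with 5 or more such probesets, of 232479 probesets in all. Of these, 134198 passed both brightness minimums, and 0.486% of them were relative risers. As the comparison with the control chose the probesets, changes against the control are given below as descriptions with no test of their own.

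The samples were WI38 cells, an established line of human diploid lung fibroblasts with a finite life span. Cells received 100 nM of MALAT1 antisense oligonucleotide AS1, of AS2, or of control oligonucleotide (Ctr), in 2 transfections 24 h apart, and each group was hybridised to 2 arrays. Nothing in the labels says that the 2 arrays of a group came from separate cultures, so the spread between them may be technical. The control sequence used for these arrays was not given in the sources used here, though its transfections were the same. The study asked how loss of MALAT1 alters the output of the genome, alternative exons included.

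MALAT1 is a long noncoding RNA that stays in the nucleus and gathers in nuclear speckles, where splicing factors are stored. Most human genes can be read as more than 1 transcript, through alternative start sites, cassette exons or alternative ends. A probeset whose signal moves apart from its gene can reflect such a change, and with few arrays it can also reflect measurement error.

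Both oligonucleotides were designed against MALAT1, and their sequences are shown because every contrast with the control rests on them. They are given from the 5′ end, with no base in capitals.
AS1: gggagttacttgccaacttg
AS2: atggaggtatgacatataat
Each is a DNA oligonucleotide with 20 bases, of which 10 are G or C in AS1 and 6 in AS2. The windows around the annotated start of MYBL2 and of CENPE are shown as well, because the probeset at the 5′ end of each of these falling genes was a relative riser. They are RefSeq sequences of GRCh38.p14, at chr20:43666864-43667163 on the plus strand and chr4:103198294-103198593 on the minus strand, and capitals mark the first 50 transcribed bases.
MYBL2: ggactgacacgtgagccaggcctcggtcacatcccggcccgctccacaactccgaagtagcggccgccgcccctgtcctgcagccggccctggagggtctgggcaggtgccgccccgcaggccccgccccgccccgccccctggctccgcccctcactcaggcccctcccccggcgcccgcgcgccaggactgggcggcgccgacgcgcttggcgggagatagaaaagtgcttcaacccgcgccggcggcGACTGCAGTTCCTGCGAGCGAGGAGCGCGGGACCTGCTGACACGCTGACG
CENPE: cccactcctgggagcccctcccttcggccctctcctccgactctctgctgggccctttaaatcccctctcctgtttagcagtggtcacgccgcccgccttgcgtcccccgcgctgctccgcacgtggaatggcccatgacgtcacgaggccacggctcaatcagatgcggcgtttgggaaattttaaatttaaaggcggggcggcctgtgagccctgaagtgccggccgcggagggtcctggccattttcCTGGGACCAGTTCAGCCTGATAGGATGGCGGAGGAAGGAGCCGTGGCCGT
The letters TTGGCGGG, a form of the site bound by E2F factors, were searched on both strands and occur in the MYBL2 window but not in the CENPE window. They occur in 1.26% of 27305 windows of that length. TTTGAA, a form of the cell cycle homology region, occurs in neither and in 15.4% of all windows.

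MALAT1 itself was at 12.01 and 11.97 on the Ctr arrays, as the mean of its probesets. AS1 left it at 9.23 and 7.82, AS2 at 8.19 and 8.13, so the first AS1 array kept more of it than the other 3. The mean fall of 3.64 ± 0.29 (SE) had an adjusted p of 1.85e-05 in limma over 15417 genes. Medians of the 6 arrays lay between 7.34 and 7.36. All 8 fibroblast markers were bright on Ctr arrays (9.78 to 11.97), while the measured epithelial (4 of 5), endothelial (3 of 3) and leukocyte markers (3 of 4) lay between 3.48 and 6.53. The endothelial PECAM1 was at 4.84 and 4.62 with Ctr and between 5.31 and 5.74 with the oligonucleotides, and its part in any result was not tested.

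Relative risers fell into 3 kinds by what the probeset and its gene did. In 485 probesets of 383 genes the probeset itself was at least 1 above Ctr with both oligonucleotides, and the gene did not fall by 1. Their own change had a median of 1.92 and reached 5.38, and in 285 of them the gene median moved by less than 0.5. Another 82 probesets, in 52 genes, belonged to genes whose median fell by at least 1 with both. Among these, 68 probesets stayed within 0.5 of their Ctr level, so they stood out because the rest of the gene fell. The remaining 85 lay between, with own changes from 0.06 to 1.41 in genes that changed by a median of -0.45.

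**Figure D1:**
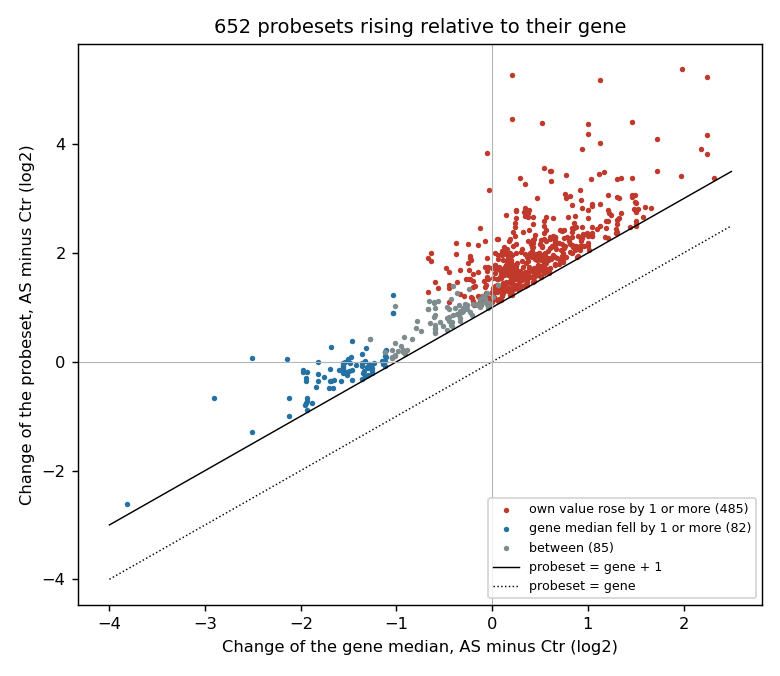
Change of each of the 652 probesets (vertical axis) against the change of its gene median (horizontal axis), both as AS minus Ctr on the log2 scale over 4 AS and 2 Ctr arrays. All points lie on or above the line 1 above equality because the selection put them there, and they run from MALAT1, whose gene median fell by 3.82, to genes that rose by up to 2.32.

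All 4 AS arrays lay above both Ctr arrays in 530 of the 652 (81.3%), beside 17.6% of the 209621 probesets. In the 485 that were higher themselves it was 469, and in the 82 of falling genes it was 2. Since this contrast chose the members, nothing is read from these counts. In limma fits of the relative values, 62 members were called above Ctr with AS1 (background 0.0596% of all probesets), 105 with AS2 (0.105%) and 56 with both (0.0487%). With any 1 array left out, or with a replicate block, 0 members were called with both. These calls rest on the contrast that selected them and are given as a description.

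The probeset of largest relative change lies near the end of DDX3X, the gene of a DEAD-box RNA helicase that acts in translation initiation. Probeset 3974889, number 18 of 20 in the gene, measured 8.89 and 8.41 after AS1, 9.98 and 9.60 after AS2, against 4.19 and 3.72 with Ctr. Its relative change was 4.49 with AS1 and 5.62 with AS2. Probesets 19 and 20 were relative risers too, with own changes of 4.46 and 1.96. The other 17 probesets of the gene changed by between -0.43 and 0.42, so the change was restricted to the last 3 in order. In the plot of changes along genes, DDX3X is flat up to probeset 17.

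**Figure D2:**
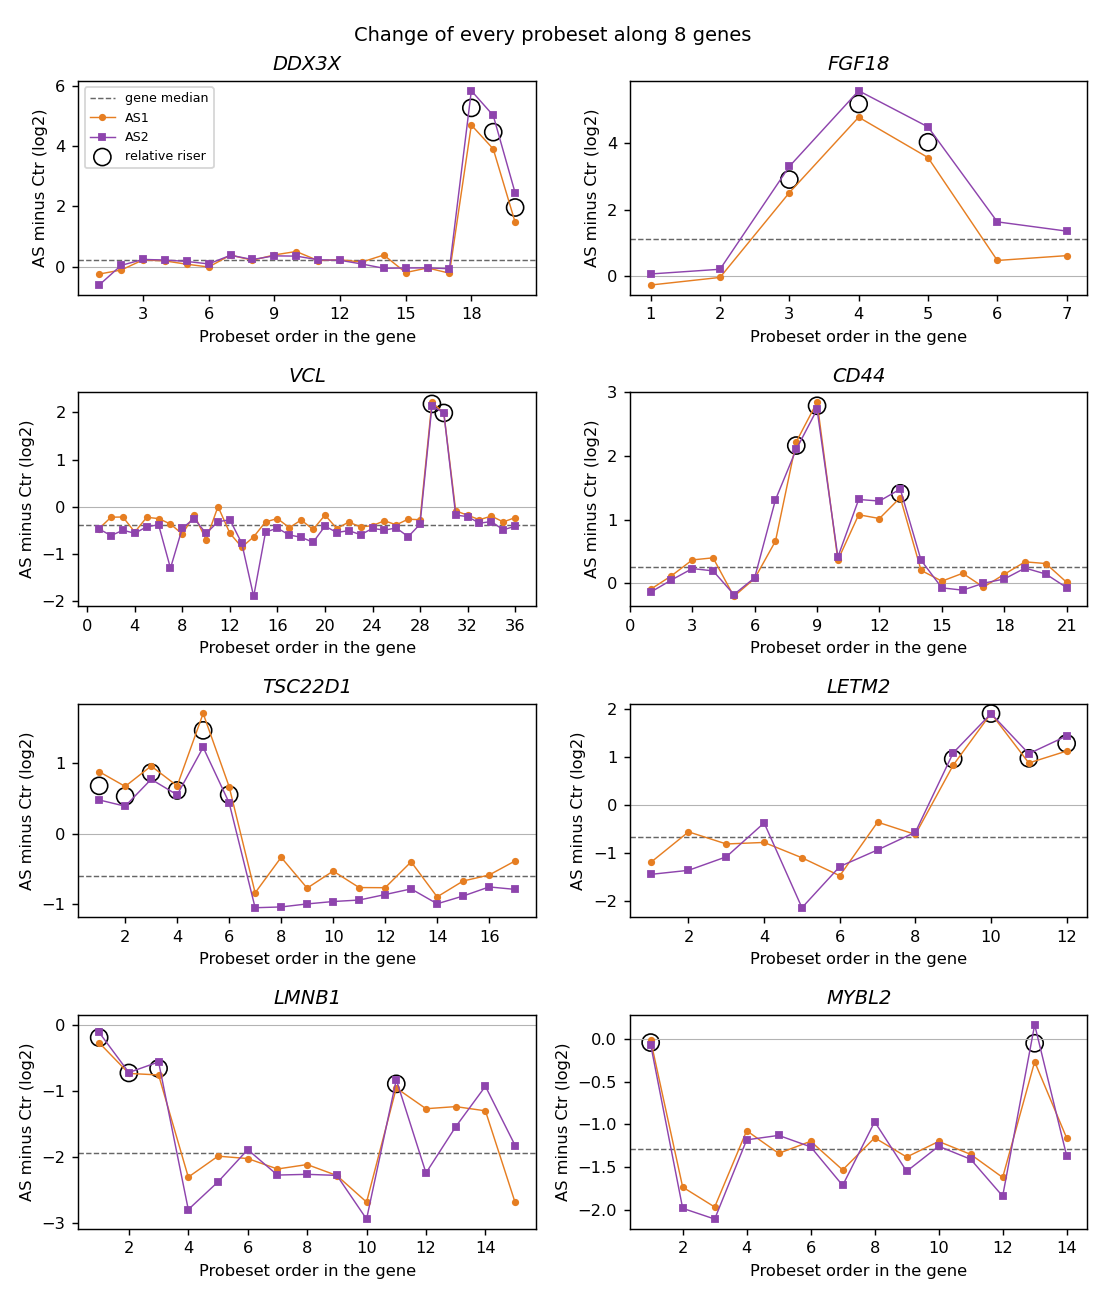
Change of every probeset (AS1 and AS2 minus Ctr, log2, means of 2 arrays each) by its order in 8 genes, with the gene median as a dashed line and relative risers ringed. DDX3X, FGF18, VCL and CD44 have short raised stretches, and TSC22D1 and LETM2 split into a higher and a lower block. LMNB1 and MYBL2 fell, while a few of their probesets fell less or stayed near Ctr. Each panel has its own vertical scale.

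FGF18, which encodes a secreted fibroblast growth factor, had its relative risers at probesets 3 to 5 of 7. Probeset 4 stood at 8.80 and 8.55 with AS1 and 9.52 and 9.42 with AS2, against 3.996 and 3.80 with Ctr. Its own change was 5.18, that of probeset 5 was 4.03 and that of probeset 3 was 2.91. The gene median itself was 1.13 higher, and the 4 other probesets changed by -0.09 to 1.06.

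Several leaders were single probesets in genes whose median moved little. EPS8L3, of the EPS8 family of actin regulators, had 1 riser (number 7 of 19) at 9.76 and 9.96 with AS1 and 10.01 and 10.33 with AS2, against 6.30 and 6.06 with Ctr. The other 18 probesets of EPS8L3 changed by between -0.39 and 0.72. VIRMA, listed under its older symbol KIAA1429, is a scaffold of the complex that writes N6-methyladenosine on RNA. Its probeset 16 of 31 was at 9.48 and 9.52 with AS1, 9.12 and 9.36 with AS2, and 5.84 and 6.57 with Ctr, while the gene median changed by -0.03 and the other 30 probesets by between -1.61 and 0.72. UXT, a prefoldin-like chaperone, carried its riser at the end of the gene that lies farthest from the 5′ end. That probeset measured 7.54 and 7.21 with AS1, 7.08 and 6.92 with AS2, and 3.16 and 4.45 with Ctr.

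Other leaders lay in genes whose median was higher as well. GP5, the platelet glycoprotein V, had the largest own change of all members, 5.38, in a gene with a median change of 1.98. Its riser was at 8.44 and 8.40 with AS1 and 9.18 and 9.50 with AS2, against 3.77 and 3.24 with Ctr. SLC13A4, a sodium-dependent sulfate transporter, had a riser with an own change of 5.25 in a gene that changed by 2.24. CFAP251, listed as WDR66 and known from the sperm flagellum, had 4 risers with own changes of 3.03 to 4.42 in a gene with a median change of 1.46. SUSD2, a membrane protein with a sushi domain, had its leading riser at the last of 14 probesets, with an own change of 3.91. CCDC17 had its leading riser at order 1 of 20, the last from its 5′ end, at 8.44 and 7.96 with AS1, 8.90 and 9.32 with AS2, and 4.11 and 4.42 with Ctr. Control levels of these leaders were low. Each AS array was above both Ctr arrays, as in 81.3% of all members, and the selection used this contrast.

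**Figure D3:**
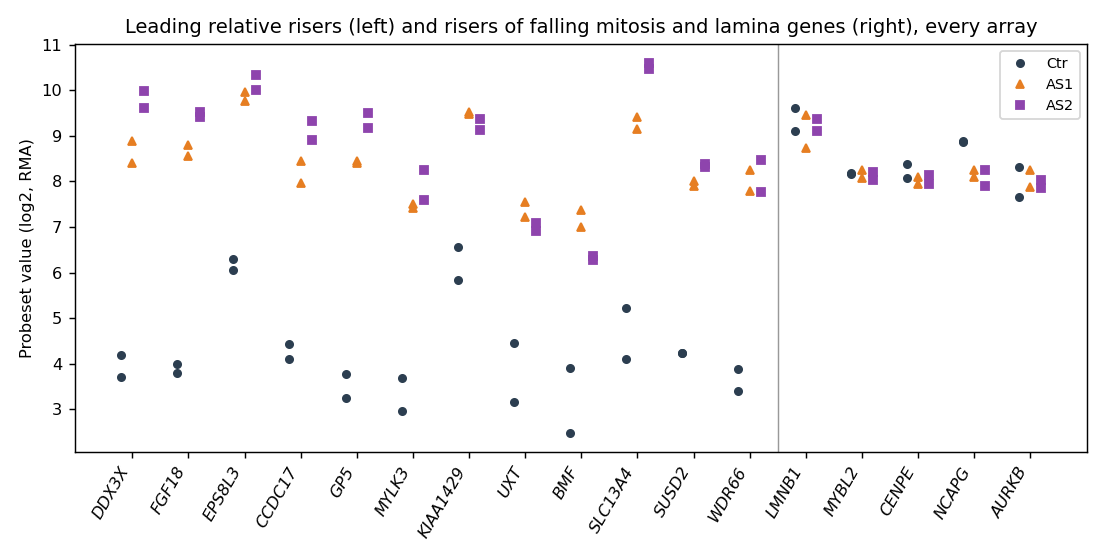
RMA log2 value of 1 probeset per gene on each of the 6 arrays (circles Ctr, triangles AS1, squares AS2). The 12 genes of largest relative change are on the left, where each AS array is above both Ctr arrays, and on the right are probesets of LMNB1, MYBL2, CENPE, NCAPG and AURKB, which differ by less than 1 from Ctr although the gene median fell by more than 1.

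MYLK3, the kinase of cardiac myosin light chain, held 6 relative risers among 20 probesets, 4 of them next to each other. Probeset 6 was at 7.42 and 7.52 with AS1, 7.59 and 8.25 with AS2, and 3.69 and 2.97 with Ctr. The own changes of the 6 ran from 2.18 to 4.36 in a gene with a median change of 1.01. BMF encodes a BH3-only protein that promotes apoptosis and had 4 risers among 18 probesets, 3 of them in a row. The central one measured 7.38 and 6.996 with AS1, 6.28 and 6.36 with AS2, and 3.91 and 2.48 with Ctr. THUMPD2, an RNA methyltransferase, had 5 risers with own changes of 2.502 to 2.92 in a gene that was higher too. ZSCAN12, a zinc finger gene, and APC2, a relative of the adenomatous polyposis coli gene, had 4 each, with own changes of 1.48 to 2.25 and 1.68 to 2.54. Both genes moved little in the median, by 0.18 and 0.43.

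Most relative risers stood alone. Of 500 genes, 399 held 1 riser, 66 held 2 and 35 held 3 or more (24 with 3, 8 with 4, 1 with 5 and 2 with 6). In probeset order they formed 573 runs, 516 of a single probeset, 40 of 2, 14 of 3, 2 of 4 and 1 of 6. Runs of 2 or more took up 136 of the 652 members. The share was 33 of 82 in falling genes and 87 of 485 among probesets that were higher themselves. Probesets next to a riser were often raised with it: the mean relative change of the flanking probesets had a median of 0.28, beside 0.01 around all bright probesets. A flank of at least 0.5 was present for 52.0% of the members, beside 10.0% of bright probesets, and for 32.1% of the members neither flank reached 0.25. Flanks belong to the same gene and arrays, so these shares describe the members and are not a test.

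The longest run lay in TSC22D1, which encodes long and short proteins of the TSC22 domain family from different start sites. Its 6 risers were the first 6 of 17 probesets in order, which on this minus-strand gene are the 6 at the 3′ end. Their own changes ran from 0.53 to 1.47, while the 11 others changed by between -0.94 and -0.59. Probeset 5 was at 10.48 and 10.58 with AS1, 9.98 and 10.12 with AS2, and 8.68 and 8.97 with Ctr. The border between the higher and the lower block fell between probesets 6 and 7 with both oligonucleotides. The nearest gene in probeset order on the side of the run, CCDC122, changed by -0.19 with AS1 and -0.24 with AS2. Probeset order was compared with the chromosome within each strand only, so a gene of the other strand may lie nearer.

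LETM2, a mitochondrial inner membrane protein related to LETM1, was divided in the same manner. Probesets 9 to 12 of 12 had own changes of 0.96 to 1.91, and the 8 others changed by between -1.62 and -0.57. Probeset 10 measured 9.40 and 8.74 with AS1, 8.81 and 9.34 with AS2, and 6.94 and 7.38 with Ctr. TACC1, the next gene after the run in probeset order, was 0.41 higher with AS1 and 0.46 with AS2. The adjusted p for the mean of both was 0.0194 in limma over 15417 genes. Other genes may lie between them on the chromosome. After the DDX3X run the next gene in probeset order is NYX, which changed by -0.07 with each oligonucleotide.

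The 14 runs of 3 lay in genes whose median was higher, little changed or lower. TNFRSF10C, a decoy receptor for TRAIL, had its run at probesets 8 to 10 of 11, with a mean own change of 1.80 in a gene that changed by 0.10. COMMD5, of the COMM domain family, had its run at probesets 1 to 3 of 7, with a mean own change of 2.16 beside 0.38. FMNL3, an actin-nucleating formin, had its run at the 3′ end of 36 probesets, with a mean own change of 1.53 beside 0.09. In each of these genes the run was a minority of the probesets. JAM2, a junctional adhesion molecule, had its run at probesets 1 to 3 of 13, where the mean own change was -0.47 and the gene changed by -1.95. DPYD, the first enzyme of pyrimidine breakdown, had its run inside the gene at probesets 16 to 18 of 26, with -0.04 beside -1.46. CYP4V2, a fatty acid hydroxylase, had a run at probesets 5 to 7 of 24, with 0.43 beside -1.01. In these genes the run was within 0.5 of its Ctr level on average and the gene median was 1 or more lower.

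Cytoskeletal and matrix genes with known alternative exons held 10 relative risers in 7 of 34 measured genes, 0.881% of their bright probesets beside 0.486% over all genes. VCL encodes vinculin, which links integrin adhesions to actin and has a longer muscle form, metavinculin, made with 1 extra exon. Probesets 29 and 30 of 36 in VCL were relative risers, and no probeset was mapped to an exon here. Number 29 was at 10.23 and 10.23 with AS1, 10.12 and 10.18 with AS2, and 8.06 and 7.95 with Ctr. Number 30 was at 11.75 and 11.85, 11.79 and 11.82, and 9.73 and 9.90 in the same order. The other 34 probesets of VCL changed by between -1.28 and -0.14, so every one of them was lower on average.

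CD44, the hyaluronan receptor, has a block of variable exons in the middle of the gene. Its relative risers were probesets 8, 9 and 13 of 21, which were not mapped to those exons. Probeset 9 measured 10.45 and 10.21 with AS1, 10.17 and 10.26 with AS2, and 7.25 and 7.72 with Ctr. Probeset 8 was at 11.05 and 11.08 with AS1, 10.83 and 11.06 with AS2, and 8.89 and 8.80 with Ctr. The own change of probeset 13 was 1.41, and the gene median changed by 0.25. Probesets before number 7 and after number 14 stayed near that median, as the plot of changes along genes shows.

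The other risers of this list were single probesets. ENAH, an actin polymerisation factor, had 1 at 7.47 and 6.92 with AS1, 6.40 and 6.89 with AS2, and 5.03 and 5.70 with Ctr. TPM2, a tropomyosin, had 1 at 8.10 and 7.38 with AS1, 8.22 and 8.10 with AS2, and 5.64 and 6.70 with Ctr. PDLIM5, a PDZ and LIM domain scaffold, and VCAN, the proteoglycan versican, had risers with own changes of 1.20 and 1.11. MACF1, a linker of actin and microtubules, had 1 riser among 116 probesets, which measured 4.35 and 7.03 on the 2 AS2 arrays. Those arrays differ by more than the relative change that the rule asks for.

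Splicing regulators held 4 relative risers in 4 of 32 measured genes, 0.957% of their bright probesets beside 0.486% over all genes. A count this small is given as a description. TRA2B, listed as SFRS10, is an SR-like splicing factor that carries an ultraconserved cassette exon, to which no probeset was mapped here. Its riser, the fourth probeset from the 5′ end, measured 9.39 and 9.10 with AS1, 8.90 and 9.48 with AS2, and 7.28 and 7.43 with Ctr, in a gene whose median changed by 0.16. MBNL1, a muscleblind regulator, had 1 at 8.98 and 9.01 with AS1, 8.034 and 8.003 with AS2, and 6.32 and 7.05 with Ctr. HNRNPH3 had a riser whose relative change was 2.17 with AS1 and 1.06 with AS2. The riser of PTBP2, the neuronal paralogue of PTBP1, was at 4.35 and 6.43 on the 2 Ctr arrays, 2.08 apart by itself.

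Of the p53 targets, 3 of 32 measured genes held 1 riser each, 0.802% of bright probesets beside 0.486% over all genes. This small count too is a description. MDM2, the ubiquitin ligase of p53, had its riser at 7.04 and 6.04 with AS1, 5.30 and 6.35 with AS2, and 2.87 and 3.54 with Ctr, in a gene whose median was 0.93 higher. PPM1D, a phosphatase of the p53 pathway, had 1 with an own change of 2.67 in a gene with a change of 0.79. TP73, a relative of p53, had 1 with an own change of 1.09 and a gene median of -0.03. In all 3 probesets each AS array was above both Ctr arrays, as in 81.3% of all members, a contrast that the selection used.

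In falling genes most risers stayed near their Ctr level (68 of 82 within 0.5). Others were lower but by less than their gene, or above Ctr, as in NEIL3 below. Mitosis and G2/M genes held 5 relative risers in 4 of 49 measured genes, 0.741% of their bright probesets beside 0.486% over all genes and 4.19% in falling genes with a known strand. The median gene of this list changed by -1.02. CENPE, a kinesin of the kinetochore, had risers at numbers 1 and 54 of 55 from the 5′ end. The one at the 5′ end was at 7.95 and 8.09 with AS1, 8.13 and 7.95 with AS2, and 8.38 and 8.08 with Ctr, while the gene median was 1.52 lower. NCAPG, a condensin subunit, had 1 at 8.09 and 8.24 with AS1, 8.24 and 7.89 with AS2, and 8.89 and 8.86 with Ctr, in a gene that changed by -1.88. AURKB, the chromosomal passenger kinase, had 1 with an own change of 0.02 beside a gene change of -1.32. SMC4, of condensin, had 1 with an own change of 0.18 and a gene change of -0.93.

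MYBL2 encodes B-MYB, a transcription factor of late cell cycle genes. The study surveyed exon use over the genome on exon arrays. MYBL2 is among the 4 measured genes that the study assayed by RT-PCR as well. Its relative risers were probesets 1 and 13 of 14. Probeset 1, at the 5′ end, was at 8.09 and 8.24 with AS1, 8.03 and 8.20 with AS2, and 8.17 and 8.19 with Ctr. Probeset 13 was at 6.06 and 5.72 with AS1, 6.24 and 6.41 with AS2, and 6.06 and 6.25 with Ctr. It was dim beside the 12 others, whose Ctr levels had a median of 9.155. Whether so dim a probeset can follow a fall of its gene was not tested. The 12 others changed by between -2.04 and -1.06. Both risers overlapped the Ctr arrays, so no rise was seen in the probesets as such. That study list of 4 genes held 4 risers in 2 genes, all in genes that fell by 1 or more. They were 5.97% of its bright probesets, beside 0.486% over all genes and 4.19% in falling genes with a known strand. Since the study selected the list, its count is not independent evidence.

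LMNB1 encodes lamin B1 of the nuclear lamina and had 4 relative risers, at probesets 1, 2, 3 and 11 of 15. The first was at 8.72 and 9.45 with AS1, 9.37 and 9.11 with AS2, and 9.60 and 9.11 with Ctr. From there the own change went to -0.73 and -0.66 at probesets 2 and 3, and the 11 others changed by between -2.81 and -1.12. VAT1L had the largest relative change among falling genes, 2.58 at its first probeset. That probeset measured 8.68 and 8.94 with AS1, 8.84 and 8.78 with AS2, and 8.74 and 8.75 with Ctr, while the gene median was 2.52 lower. ELOVL2, an elongase of polyunsaturated fatty acids, kept its first probeset at 9.13 and 9.26 with AS1 and 9.21 and 8.79 with AS2, against 9.08 and 9.01 with Ctr. Its gene median was 2.14 lower.

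Some falling genes kept longer stretches. ITGA4, the integrin alpha 4 chain, kept its first 2 of 34 probesets, with own changes of -0.07 and -0.02 beside a gene change of -1.55. NRK, a serine/threonine kinase, kept its first 3 of 37, with own changes of -0.34, -0.22 and -0.01 beside -1.82. IFNAR1, a chain of the type I interferon receptor, had risers at probesets 3, 5, 6 and 8 of 17, with own changes from -0.21 to -0.10. NEIL3, a DNA glycosylase, differed from these, as its 3 risers at probesets 10 to 12 of 14 were 0.90 to 1.22 above Ctr in a gene that fell by 1.03. The lowest own changes among all members were those of MALAT1 (-2.61), VAT1L (-1.29), RFTN2 (-0.99), LMNB1 (-0.89), the TRPA1 channel (-0.79) and NCAPG (-0.76). In MALAT1 this was the first of 11 probesets, at 10.36 and 9.09 with AS1, 9.53 and 9.50 with AS2, and 12.26 and 12.20 with Ctr, so it too was far below the control.

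Position along the gene was not part of the rule. Probeset numbers follow the chromosome: 99.1% of neighbouring plus-strand genes and 99.3% of neighbouring minus-strand genes stood in rising order of their current start. The 5′ end was therefore taken as order 1 on the plus strand and as the last number on the minus strand, which could be done for 542 of the 652 members. In 138 falling genes with a known strand, 41 of 381 bright probesets in the first 2 of 10 equal parts from the 5′ end were relative risers (10.8%), against 29 of 1290 in the rest (2.25%). Part 1 alone held 30 of 193 (15.5%) and part 10 held 2 of 146 (1.37%). Without AS1 replicate 2, the array with least MALAT1, the shares were 6.79% in the first 2 parts and 1.47% in the rest. Of the 70 members in these genes, 24 were the very first probeset, out of 114 bright first probesets, and 41 were among the first 3. Most falling genes showed no such stretch, as 111 of 163 with bright probesets held no riser, and the median probeset of the first 2 parts changed by -1.31, close to the -1.35 of the rest.

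**Figure D4:**
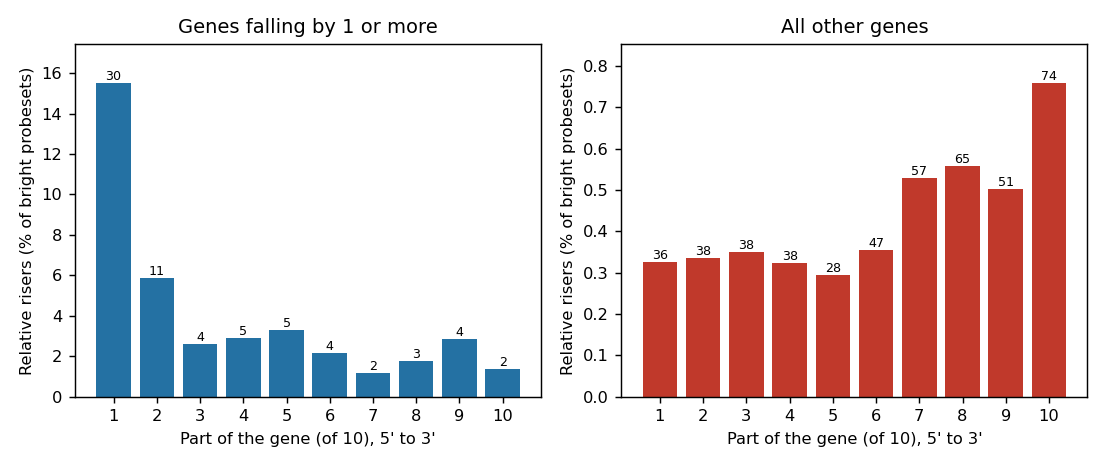
Share of bright probesets that were relative risers in each of 10 equal parts of the gene from the 5′ to the 3′ end, in 138 genes whose median fell by 1 or more with both oligonucleotides (left) and in all other genes with a known strand (right). Numbers over the bars count the risers, the vertical scales differ, and the left panel declines from 15.5% while the right one increases from 0.325% to 0.758%.

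In all other genes the share leaned the other way, from 36 of 11077 (0.325%) in part 1 to 74 of 9765 (0.758%) in part 10. Bright probesets there were dimmer toward the 3′ end, with a median Ctr value of 8.60 in part 1 and 8.05 in part 10, and the part of this in the lean was not tested. Among the 397 own risers with a strand, 36 were the last probeset of their gene and 14 the first. Probesets falling relative to their gene gave a mirror image when chosen by the same thresholds with the sign turned. There were 550 of them in 379 genes, and 65 genes held probesets of both kinds. In genes that rose by 1 or more with both oligonucleotides, 49 of 293 bright probesets in the first 2 parts were such fallers (16.7%), against 22 of 1114 in the rest (1.97%). The 5′ end changed less than its gene more often than the rest did, in falling and in rising genes alike. Probesets of 1 gene are not independent, and no test was made of these shares.

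Relative risers were dim in control cells. The Ctr mean was below 6 in 333 of 652 (51.1%), beside 2.34% of all bright probesets. Below the Ctr median of their own gene lay 531 members (81.4%), beside 40.5% of bright probesets. In falling genes none of the 82 was below 6, and 313 of the 333 belonged to the probesets that were higher themselves. The rule largely fixed this contrast. Only 20 of the 82 had an own change above 0, and the others needed a Ctr mean of at least 6 to pass. The rule asks for signal on the AS arrays alone, so a probeset that is dim in control can enter while one that is dim on AS arrays cannot.

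The 2 Ctr arrays disagreed more at the members than elsewhere. They were over 1 apart in 113 of 652 (17.3%), beside 1.43% of bright probesets, and a member of a gene such as MGST2 was at 2.07 on one and 7.68 on the other. Among probesets that were higher themselves it was 98 of 485, and in falling genes 3 of 82. Bright probesets were not matched to the members for Ctr level, and the part of this in the disagreement was not tested. Without those 113, 539 members remained. The lower Ctr array was replicate 1 in 398 members (61.0%), beside 53.3% of bright probesets. Without Ctr replicate 2 the same rule chose 1353 probesets, 533 of them among the 652, and without Ctr replicate 1 it chose 695, of which 402 are.

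How far single arrays carried the selection was seen by choosing on the replicate 1 arrays alone and reading the replicate 2 arrays. By the same rule replicate 1 chose 1080 probesets, of which 264 (24.4%) also reached 1 with both oligonucleotides on replicate 2, beside 0.592% of bright probesets. Their median relative change was 1.46 where they were chosen and 0.67 where they were not. In the other direction 823 were chosen, 245 (29.8%) reached 1 beside 0.758% of bright probesets, and the median went from 1.37 to 0.85. Relative change was above 0 with both oligonucleotides in 81.5% and 81.9%, beside 37.2% and 34.0%. The bright probesets set beside the chosen ones were not matched for Ctr level, and the part of this in the gap was not tested. As the arrays of a group may be technical repeats, these shares need not hold between cultures. Of the 652 members, 226 (34.7%) were chosen by each replicate on its own, 189 of them higher themselves and 16 in falling genes. Members of DDX3X, FGF18, EPS8L3, GP5, VCL and CD44 named above were among these, and the risers of MYLK3, BMF and MYBL2 were not. All of them were selected on the arrays of both replicates, so this listing describes them and is no test. In BMF all 4 risers, and in MYLK3 4 of 6, reached a relative change of 1 with both oligonucleotides on each replicate, but the gene median was 5.85 and 5.98 on Ctr replicate 2, under the minimum of 6. With the brightness minimums set aside, 256 of 652 (39.3%) reached 1 on each replicate. The risers of MYBL2 each missed 1 on 1 replicate, with a lowest value of 0.87 for probeset 1 and 0.90 for probeset 13.

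**Figure D5:**
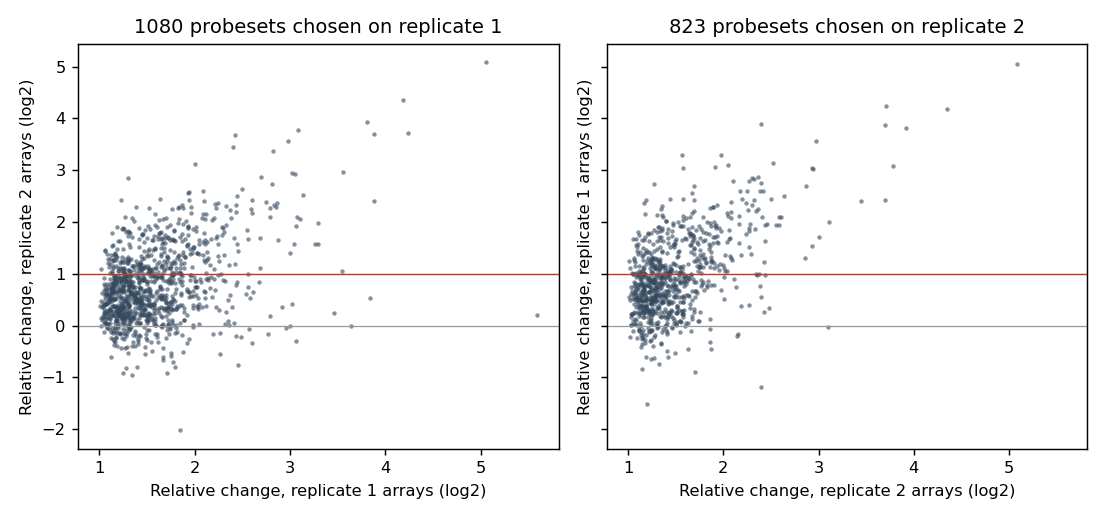
Relative change (log2, mean of AS1 and AS2) on the arrays of 1 replicate for probesets chosen on the other, with red lines at 1 and grey lines at 0. Of 1080 probesets chosen on replicate 1 the median on replicate 2 was 0.67, and of 823 chosen on replicate 2 the median on replicate 1 was 0.85, so most points lie above 0 and below their value on the choosing arrays.

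AS1 and AS2 were set against each other at the members, a contrast that the rule used only in asking for both. In limma 0 of 652 members and 0 of 209621 probesets (0%) differed between them at an adjusted p of 0.05, and the smallest adjusted p of a member was 0.782. At an unadjusted p under 0.05 there were 61 members, 9.36%, beside 5.82% of all probesets. The difference, AS2 minus AS1, had a median of 0.01 and quartiles of -0.18 and 0.23, with a median SE of 0.26. It was positive in 332 of 652, over 0.5 in size in 98 and over 1 in 11, of which 10 were higher with AS2. The last probeset of UPP1, a uridine phosphorylase, was at 5.35 and 5.46 with AS1, 7.66 and 7.51 with AS2, and 3.27 and 2.98 with Ctr, a difference of 1.33 ± 0.12 (SE) in relative value with an adjusted p of 0.782. In DDX3X the 3 risers were 0.98 to 1.15 higher with AS2, each with an adjusted p of 0.782. These misses leave room for differences of this size, since p was adjusted over 209621 probesets and the fit had 3 residual degrees of freedom.

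The threshold cut through a continuous range. Just inside were THUMPD2 probeset 5 of 19, with relative changes of 1.0022 and 1.0011, PHLDB3 probeset 4 of 14 (1.0022 and 1.0946) and SLC25A15 probeset 2 of 9 (1.0022 and 1.3631). Just outside were C1orf2 probeset 1 of 21 (1.3846 and 0.9991), IFNAR1 probeset 1 of 17 (1.376 and 0.9985) and KIAA1217 probeset 25 of 36 (0.9981 and 1.232).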

How the data were processed

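WI38 RNA was measured on 6 exon arrays in 3 groups of 2. The authors deposited log2 values that had passed through RMA and Partek (version and genome build not given in the sources used here), which were analysed unchanged. The number of arrays limits precision. Probesets took their gene from the GEO platform table, where 216780 carry 1 symbol, and symbols can be old. RefSeq tables of GRCh38.p14 served for current names, strand and start windows, and no probeset coordinates were used.

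Members and gene lists were chosen with earlier results of these data known. Relative values (probeset minus its Ctr mean, less the gene median of that on each array) were fitted in limma 3.58.1 (R 4.3.3) over all 209621 probesets and 3 groups, with 3 residual and 2.75 prior degrees of freedom, and Benjamini-Hochberg adjustment at 0.05. The fit was tested on simulated data. Because 19 probesets have no spread within groups, limma set their variance off 0. Genes were named by fixed rules: the 12 of largest relative change, the 8 with most members, the 6 longest runs with neighbours, the 6 largest and 6 smallest own changes, list members and those at the threshold. ELOVL2, ITGA4, NRK, IFNAR1, NEIL3, TNFRSF10C, COMMD5, FMNL3, JAM2, DPYD, CYP4V2, MGST2 and UPP1 were added after their values were seen. Gene centre, thresholds, brightness, normalization, moderation, the replicate block and each array were varied.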

Additional observations from a re-analysis of the deposited data

How the results depend on the processing

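The 652 relative risers became 1273 at a relative change of 0.8, 174 at 1.5 and 319 where the probeset also had to reach 6 in control cells. Without 1 array the count ran from 534 to 1353. Leaving out Ctr replicate 2 gave 1353, of which 533 are among the 652, and leaving out Ctr replicate 1 gave 695, of which 402 are. With the gene mean as the centre there were 547 (507 shared), and the remaining settings gave 441 to 822. Of 79 named probesets, 56 kept a mean relative change over AS1 and AS2 of 1 or more under all 9 alternative settings, and none went below 0. This mean asks less than the rule, as it sets no brightness minimum. The settings also reuse the arrays that chose the probesets.

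Members called above Ctr with both oligonucleotides numbered 56, beside 0.0487% of all probesets. The number was 0 with a replicate block and 0 in an ANOVA without moderation. On brighter probesets 137 of 538 members were called, beside 0.165% of all probesets tested there. With trend and robust options it was 329, beside 0.396%, and with no gene centring 373, beside 2.69%. The cause of these differences was not tested. AS2 against AS1 called 0 members in all 14 fits, and 6 of 209621 probesets with trend and robust options. MALAT1 stayed at -3.64 with the replicate block and ran from -3.29 to -3.995 without 1 array. Same-numbered arrays deviated together with r of -0.19, -0.30 and 0.22, so the numbers were not taken as pairs.

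Alternatives for the 5′ share were chosen after seeing the data. In the first 2 of 10 parts of falling genes it was 6.78% with the gene mean as the centre (1.03% in the rest) and 7.12% in genes that fell by 0.8 or more (1.33%), and without 1 array it ran from 6.79% to 12% (1.47% to 3.15%). The 5′ parts had the larger share in each. At a threshold of 1.5 the held-out shares were 30.4% and 40.7%, beside 0.151% and 0.204% of bright probesets, and at 0.8 they were 25.2% and 28.1%, beside 1.22% and 1.42%. Precision is limited by 2 arrays a group, and 51.1% of the members had a Ctr mean below 6.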
